A study of Mus musculus with 10 samples.

Results

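The 28 genes described here are a listed set covering cholesterol synthesis, from the enzymes that condense acetyl-CoA units to the reductase that finishes the sterol, with the proteins that control the pathway and 1 sterol carrier. They were chosen by symbol, and 28 of 28 symbols were found among the 24411 genes of each library's count table. The set was named for cholesterol synthesis and LDL uptake, but its members are synthesis enzymes, regulators and a carrier, so uptake is not described. Genes of the pathway outside this list are not analysed here unless named.

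The series measured RNA from mouse microglia by directional RNA-seq after ribosomal RNA removal, in 10 libraries. All cells received EPZ-6438, a small molecule that inhibits the histone methyltransferase EZH2, at 10 uM, and were collected at 4 h. The groups were primary microglia given EPZ-6438 and lipopolysaccharide (LPS, a bacterial envelope component that activates Toll-like receptor signalling) at 10 ng/ml (n = 3), primary microglia given EPZ-6438 without LPS (n = 3), BV2 cells given EPZ-6438 and LPS at 10 ng/ml (n = 2), and BV2 cells given EPZ-6438 without LPS (n = 2). Inhibitor-free cells were not analysed here, so every comparison describes cells under the inhibitor. Primary microglia were shaken from mixed glial cultures made from pooled brains of 12 ICR mice aged 3 days. Per the labels' protocols, over 92% of the cells were CD11b-positive. BV2 cells are a continuously growing, immortalised line derived from mouse microglia. The labels do not say whether replicates came from separate cultures, so each p-value measures the spread between these libraries, which may be technical.

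Cells make cholesterol through the mevalonate pathway, which builds isoprenoid units, joins them into squalene, closes squalene into lanosterol and then trims and reduces lanosterol to cholesterol. Most of these enzymes are transcribed under SREBP2, a transcription factor held in the endoplasmic reticulum by SCAP and INSIG proteins when sterols are plentiful and released by proteases in the Golgi when they are scarce. In macrophages and microglia the pathway also supplies oxysterols, prenyl groups and sterol intermediates, and inflammatory signals are known to act on it at several points.

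The libraries held 2750988 to 3684012 counts on genes, of which the 28 members took 2851 to 7030 counts, and the ribosomal precursor Rn45s took 15.7% to 51.7%. Levels are given as CPM, a gene's count relative to the library's total count after TMM scaling over the 10 libraries. Replicate 1 of the primary microglia with LPS stood apart, with a correlation of log2 levels across genes of 0.963 and 0.965 with its 2 replicates, against 0.982 between those. Its Rn45s share was 43.7%, against 15.7% and 16.0% in the other LPS libraries and 40.9% to 51.7% in primary microglia without LPS, and member calls that change without it are given both ways. With Rn45s left out of the library totals, the count of members called with LPS in primary microglia was again 7. The transcript of the inhibited enzyme, Ezh2, was not called with LPS in primary microglia (log2 fold change -0.29 ± 0.21 SE, adjusted p = 0.281) or in BV2 cells (-0.05 ± 0.16, adjusted p = 0.948, both edgeR's quasi-likelihood test with Benjamini-Hochberg adjustment). By the same test Ezh2 was lower in primary microglia than in BV2 cells without LPS (-1.36 ± 0.18, adjusted p = 2.17e-07) and with LPS (-1.56 ± 0.18, 2.14e-08).

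The members' promoters were read from RefSeq windows of 300 bases around each start site (GRCm38.p6), which matched 23 of the 28 members. No window was matched for Acat1, Fdps, Fdft1, Sqle and Stard4. The letters searched, on both strands, were TCACNCCAC (a form of the sterol regulatory element bound by SREBP2), CCAAT (the CCAAT box) and GGGCGG (the GC box), and no matches of different motifs overlap in the windows printed here. TCACNCCAC was matched in 1 of the 23 members with a window, Hmgcs1, and in 3.45% of the 29 member windows, against 1.24% of all 32851 windows. CCAAT was matched in 19 members and 65.5% of member windows, against 37.4% of all windows. GGGCGG was matched in 20 members and 79.3% of member windows, against 35.7% of all windows and 63.3% of the windows of genes tested in primary microglia. These are matches of letters, not sites shown to be bound, and the absence of a match says only that the letters are not in the window.

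Windows of 4 members are printed, picked for the results of these members. Insig1 was called with LPS in both cell types, Lss and Cyp51 moved in opposite directions with LPS in primary microglia, and Hmgcs1 differed between the cell types in the opposite direction to most members called there. Capitals mark the matches, on either strand, and each sequence runs 5′ to 3′ on the gene's own strand.
Insig1, chr5:28071162-28071461, plus strand: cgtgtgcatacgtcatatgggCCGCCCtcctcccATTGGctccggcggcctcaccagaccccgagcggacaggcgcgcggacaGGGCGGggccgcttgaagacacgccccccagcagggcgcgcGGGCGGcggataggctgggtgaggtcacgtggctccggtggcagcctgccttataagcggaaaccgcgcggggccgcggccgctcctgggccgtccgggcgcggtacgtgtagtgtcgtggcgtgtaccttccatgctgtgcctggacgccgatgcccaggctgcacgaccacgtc
Lss, chr10:76531355-76531654, plus strand: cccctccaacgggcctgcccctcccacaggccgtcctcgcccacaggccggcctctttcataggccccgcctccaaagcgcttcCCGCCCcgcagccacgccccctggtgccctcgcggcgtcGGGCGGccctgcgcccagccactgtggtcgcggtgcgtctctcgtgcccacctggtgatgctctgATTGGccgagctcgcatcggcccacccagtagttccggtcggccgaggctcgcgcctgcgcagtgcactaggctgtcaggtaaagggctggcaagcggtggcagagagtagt
Cyp51, chr5:4104648-4104947, minus strand: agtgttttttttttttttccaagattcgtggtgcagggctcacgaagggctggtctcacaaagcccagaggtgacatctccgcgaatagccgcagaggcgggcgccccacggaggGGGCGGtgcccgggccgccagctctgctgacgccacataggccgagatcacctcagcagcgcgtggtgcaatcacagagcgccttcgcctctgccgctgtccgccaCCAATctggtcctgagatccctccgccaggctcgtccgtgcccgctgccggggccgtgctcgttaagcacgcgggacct
Hmgcs1, chr13:119690101-119690400, plus strand: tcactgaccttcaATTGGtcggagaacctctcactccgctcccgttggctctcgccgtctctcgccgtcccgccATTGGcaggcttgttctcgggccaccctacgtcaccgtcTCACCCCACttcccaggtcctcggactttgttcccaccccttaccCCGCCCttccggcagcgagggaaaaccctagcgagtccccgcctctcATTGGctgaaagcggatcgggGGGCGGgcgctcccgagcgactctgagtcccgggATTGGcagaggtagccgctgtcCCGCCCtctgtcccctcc
The Hmgcs1 window holds the sterol regulatory element match TCACCCCAC, which begins at position -137 with the start site as 0, and 4 matches to CCAAT on the minus strand. The Insig1 window holds 1 match to CCAAT and 3 to GGGCGG, the Lss window 1 to CCAAT and 2 to GGGCGG, and the Cyp51 window 1 of each. The windows of Lss and Cyp51 held the same 2 kinds of match, which were common among member windows (CCAAT in 65.5% and GGGCGG in 79.3%). A link between the letters and the members' responses was not tested.

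Relative to exon length, Insig1, which encodes an endoplasmic reticulum protein that retains the SREBP2 carrier SCAP, had the highest mean level of the 28 members in all 4 groups. Its mean was 50.2 CPM per kb of exon in primary microglia with LPS and 35.2 without, and 90.7 in BV2 cells with LPS and 60.0 without. Next came the methylsterol oxidase Msmo1 in primary microglia, at 22.6 CPM per kb with LPS and 20.2 without. In BV2 cells the squalene epoxidase Sqle came next, at 48.1 CPM per kb with LPS and 48.8 without, followed by the farnesyl diphosphate synthase Fdps at 46.7 with LPS and 41.6 without. The lowest member was the sterol desaturase Sc5d in primary microglia, at 1.41 CPM per kb with LPS and 1.82 without. In BV2 cells it was the sterol reductase Tm7sf2, at 1.14 CPM per kb with LPS and 1.20 without. Lengths are unions of all annotated exons, which lowers the value of a gene with long minor transcripts such as Lss (10787 bases).

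**Figure D1:**
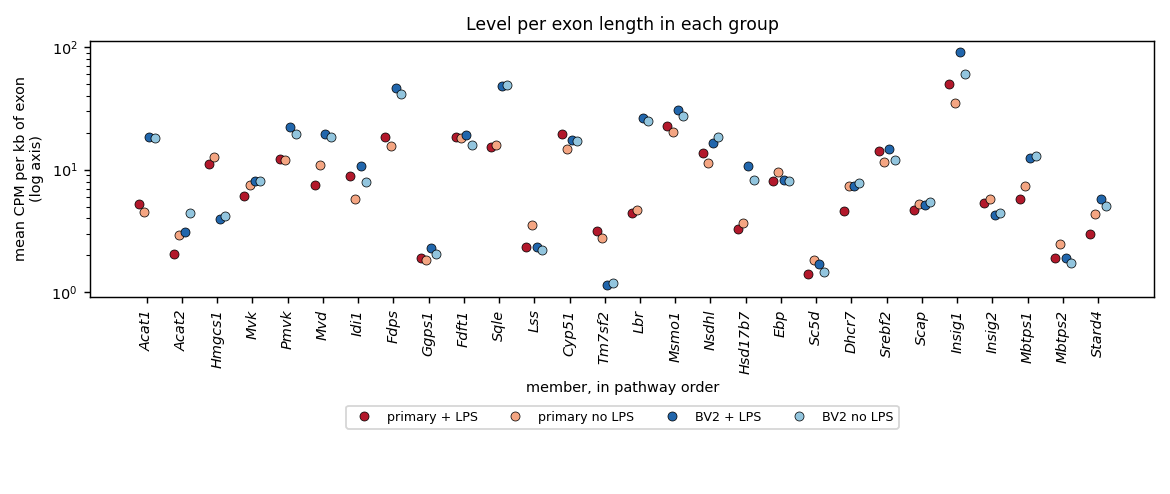
Mean level of each of the 28 members in each group, as CPM per kb of exon on a log axis, in pathway order. Insig1 is the highest point in every group (35.2 to 90.7 CPM per kb), and BV2 cells lie above primary microglia at Sqle, Fdps, Lbr and Acat1 and below them at Hmgcs1 and Tm7sf2.

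The first comparison was LPS against no LPS in primary microglia. Cholesterol synthesis genes moved in both directions: Idi1, Cyp51 and Insig1 rose, and Lss, Dhcr7, Mbtps1 and Stard4 fell, all by less than 2-fold. A member was called where its adjusted p over all genes was under 0.05 in edgeR's quasi-likelihood test. The 7 of 28 members called (25%) stood against 39.2% of the 10664 genes tested, with 21.4% of genes higher and 17.8% lower. The members' median log2 fold change was -0.10, against -0.03 over all genes tested, and their range ran from -0.69 to 0.61. The groups did not overlap for 10 members, 4 higher and 6 lower, against 49.1% of all genes. By role, 1 of 9 entry and mevalonate genes rose, 1 of 3 squalene and lanosterol genes fell, 1 of 9 later genes rose and 1 fell, and of 7 control and transport genes 1 rose and 2 fell. The summed level of the 28 members was 1181, 1230 and 1216 CPM with LPS, against 1127, 1162 and 1207 CPM without.

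In bulk libraries, fewer cells of a type and less RNA per cell cannot be told apart. The summed level of 10 microglial markers was 1929 to 2103 CPM with LPS and 2236 to 2467 CPM without, and 4 of the 9 tested fell. The 8 astrocyte markers, all with counts in both groups, summed to 868 to 1546 CPM with LPS and 848 to 1405 CPM without, and of the 7 tested 1 rose and 1 fell. Aqp4, an astrocyte water channel, had 217, 322 and 342 CPM with LPS and 149, 177 and 133 CPM without. Gja1 and Aldh1l1 went the other way, also without overlap. Gja1 had 47.3, 70.2 and 63.9 CPM with LPS and 84.8, 97.4 and 73.6 CPM without. Aldh1l1 had 13.7, 8.58 and 12.7 CPM with LPS and 16.8, 16.7 and 15.4 CPM without. The groups overlapped for the other markers of this list. The 10 oligodendrocyte-lineage markers summed to 202 to 250 CPM with LPS and 224 to 232 CPM without, with Mog at 0 in the group without LPS, and of the 9 tested 1 rose and 1 fell. The 6 fibroblast markers summed to 82.0 to 137 CPM with LPS and 105 to 322 CPM without, and none of them was called. Their part in the members' values was not tested.

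Among the entry and mevalonate genes, Idi1, the isomerase that interconverts the isoprenoid building blocks, was the only member called. The gene lies on chromosome 13, from 8885501 to 8892451 (GRCm38, plus strand), and its reads were counted over its exons. Idi1 had 25.8, 33.7 and 33.3 CPM with LPS, against 17.6, 21.2 and 21.7 CPM without. All 3 LPS libraries lay above all 3 without LPS, and the log2 fold change was 0.61 ± 0.18 (SE, adjusted p = 0.0117, edgeR). The call was lost without replicate 1 of the group without LPS (adjusted p = 0.0698) or replicate 3 with LPS (0.0532), and over its 12 alternatives the adjusted p ran from 0.000309 to 0.0698. Idi1 and Acat2 have paralogues, Idi2 and Acat3. Reads shared with these were not measured, so the counts of Idi1 and Acat2 are uncertain.

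Hmgcs1, the synthase that makes HMG-CoA, had 71.5, 40.0 and 41.8 CPM with LPS, against 58.6, 65.2 and 52.2 CPM without. The highest of these 6 values belonged to replicate 1 with LPS and the 2 lowest to its replicates, so the groups overlapped. With all libraries the log2 fold change of Hmgcs1 was -0.22 ± 0.21 (adjusted p = 0.433), and without replicate 1 it was -0.52 (adjusted p = 0.00119), the only 1 of 12 alternatives that called it (the others reached 0.839). Mvd, the decarboxylase that makes the first isoprenoid unit, had 11.3, 18.1 and 12.2 CPM with LPS and 17.9, 16.7 and 26.6 CPM without, and was not called (-0.57 ± 0.24, adjusted p = 0.0676). Without replicate 2 with LPS its log2 fold change was -0.80 (adjusted p = 0.0237, within a range of 0.0237 to 0.352 over its alternatives). The other 6 entry genes, from the thiolases Acat1 and Acat2 to the kinases Mvk and Pmvk and the prenyl synthases Fdps and Ggps1, had log2 fold changes from -0.52 (Acat2) to 0.23 (Fdps), none called.

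Of the 3 squalene and lanosterol genes, Lss fell with LPS. Lss encodes lanosterol synthase, which closes the epoxide of squalene into the first sterol ring system. It had 26.6, 27.3 and 21.8 CPM with LPS, against 36.2, 37.1 and 40.7 CPM without. Every LPS library was below every library without LPS, with a log2 fold change of -0.61 ± 0.16 (adjusted p = 0.00519, edgeR), and the call held in all 12 alternatives (adjusted p 0.00062 to 0.0495). The preceding enzymes were not called. The squalene synthase Fdft1 had 74.3, 82.3 and 76.9 CPM with LPS and 76.2, 77.8 and 74.0 CPM without (log2 fold change 0.02 ± 0.12, adjusted p = 0.9). Of the stranded reads at Fdft1, 25.1% lay on the opposite strand and were not counted here, against at most 3.36% at any other member. Sqle had 78.6, 82.0 and 95.2 CPM with LPS and 84.0, 93.3 and 86.9 CPM without (-0.06 ± 0.12, adjusted p = 0.752).

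Among the genes acting after lanosterol, Cyp51 rose and Dhcr7 fell. Cyp51, the demethylase that takes lanosterol as its substrate, had 85.2, 87.7 and 84.2 CPM with LPS, against 66.8, 69.7 and 57.8 CPM without. The 3 LPS values lay close together and above all values without LPS, and the log2 fold change was 0.39 ± 0.12 (adjusted p = 0.0173, edgeR). The Cyp51 call was lost without replicate 3 of the group without LPS (adjusted p = 0.0915), the highest adjusted p over 12 alternatives, whose lowest was 0.00559. Dhcr7, the reductase that completes cholesterol from its immediate precursor, lies on chromosome 7, from 143823145 to 143848410 (GRCm38, plus strand). Dhcr7 had 22.3, 29.6 and 27.7 CPM with LPS, against 39.2, 42.0 and 46.6 CPM without. Dhcr7 fell by 0.69 on the log2 scale (SE 0.16, adjusted p = 0.00191), was lower in all 3 LPS libraries, and was called in all 12 alternatives (adjusted p 0.000742 to 0.0166).

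The other 7 genes of these steps were not called. Sc5d had 12.1, 4.77 and 3.67 CPM with LPS, against 10.8, 7.74 and 8.06 CPM without, so replicate 1 with LPS was again the highest of 6 and its replicates were the lowest. Its log2 fold change was -0.46 ± 0.39 with all libraries (adjusted p = 0.381) and -1.08 without that replicate (adjusted p = 0.00503, the lowest over its 12 alternatives, which reached 0.837). Msmo1 and the dehydrogenase Nsdhl, which act together to remove methyl groups, had log2 fold changes of 0.15 ± 0.13 (adjusted p = 0.392) and 0.26 ± 0.16 (adjusted p = 0.198). The reductases Tm7sf2, Lbr and Hsd17b7 and the isomerase Ebp ranged from -0.26 (Ebp) to 0.18 (Tm7sf2).

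The Cyp51 and Lss values can be set against each other within a library, where total depth drops out. This ratio was chosen after the values were seen and is a description with no test. Cyp51 had 3.21, 3.21 and 3.87 counts per Lss count in primary microglia with LPS, against 1.85, 1.88 and 1.42 without. In BV2 cells the ratio was 2.51 and 3.86 with LPS and 3.10 and 3.21 without. The ratios of the 2 BV2 groups overlapped, and those of the 2 groups of primary microglia did not. The latter follows from the choice of genes, since in primary microglia Cyp51 was higher and Lss lower in every LPS library. A difference between the cell types in this ratio was not tested.

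Among control and transport genes, Insig1 rose. Insig1 is itself a known target of SREBP2. It had 143.9, 156.7 and 165.6 CPM with LPS, against 100.1, 95.7 and 131.1 CPM without. The lowest LPS library lay above the highest library without LPS, and the level was 1.41-fold higher (log2 fold change 0.50 ± 0.13, adjusted p = 0.00536, edgeR). The Insig1 call held in all 12 alternatives, with adjusted p from 1.95e-05 to 0.045. Its paralogue Insig2, which retains SCAP likewise, had 13.7, 20.0 and 22.0 CPM with LPS and 17.2, 18.3 and 24.2 CPM without, and was not called (-0.10 ± 0.22, adjusted p = 0.75). Insig1 counts were 10.5, 7.83 and 7.51 times those of Insig2 with LPS, against 5.83, 5.22 and 5.42 times without, a ratio chosen after the values were seen.

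Mbtps1 and Mbtps2 encode the proteases that release SREBP2 from the Golgi membrane in sequence. Mbtps1 fell, with 55.9, 68.0 and 57.9 CPM with LPS against 69.1, 77.8 and 85.9 CPM without (log2 fold change -0.37 ± 0.13, adjusted p = 0.0361). Its groups did not overlap, but the highest LPS value was only just below the lowest without LPS. The Mbtps1 call was lost without replicate 2 (adjusted p = 0.1) or 3 (0.147) of the group without LPS, without replicate 3 with LPS (0.125), without a filter on low counts (0.0575) and with DESeq2 (0.181), and its range over 12 alternatives was 0.0253 to 0.181. Mbtps2 had 19.5, 15.3 and 22.6 CPM with LPS and 24.3, 26.9 and 23.5 CPM without, with no overlap, but was not called (-0.39 ± 0.19, adjusted p = 0.125).

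Stard4, a soluble carrier that moves sterol between membranes, fell to 18.8, 16.8 and 14.7 CPM with LPS, against 22.0, 28.5 and 21.7 CPM without. The groups did not overlap, and the log2 fold change was -0.54 ± 0.20 (adjusted p = 0.0374, edgeR). This call was lost in 6 of 12 alternatives: without replicate 1 (adjusted p = 0.0634) or 2 (0.195) of the group without LPS, without replicate 2 (0.0812) or 3 (0.154) with LPS, without the filter (0.0566) and with DESeq2 (0.192). The lowest adjusted p among the others was 0.00893. Srebf2, which encodes SREBP2, had 120.8, 100.4 and 86.7 CPM with LPS, against 87.8, 88.8 and 70.5 CPM without. One LPS library lay within the range of those without, and Srebf2 was not called (log2 fold change 0.30 ± 0.14, adjusted p = 0.0999), though it was called without replicate 3 with LPS (0.0398) and without the filter (0.0441), within a range of 0.0398 to 0.356 over 12 alternatives. Scap, its carrier, was not called (-0.18 ± 0.17, adjusted p = 0.428).

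**Figure D2:**
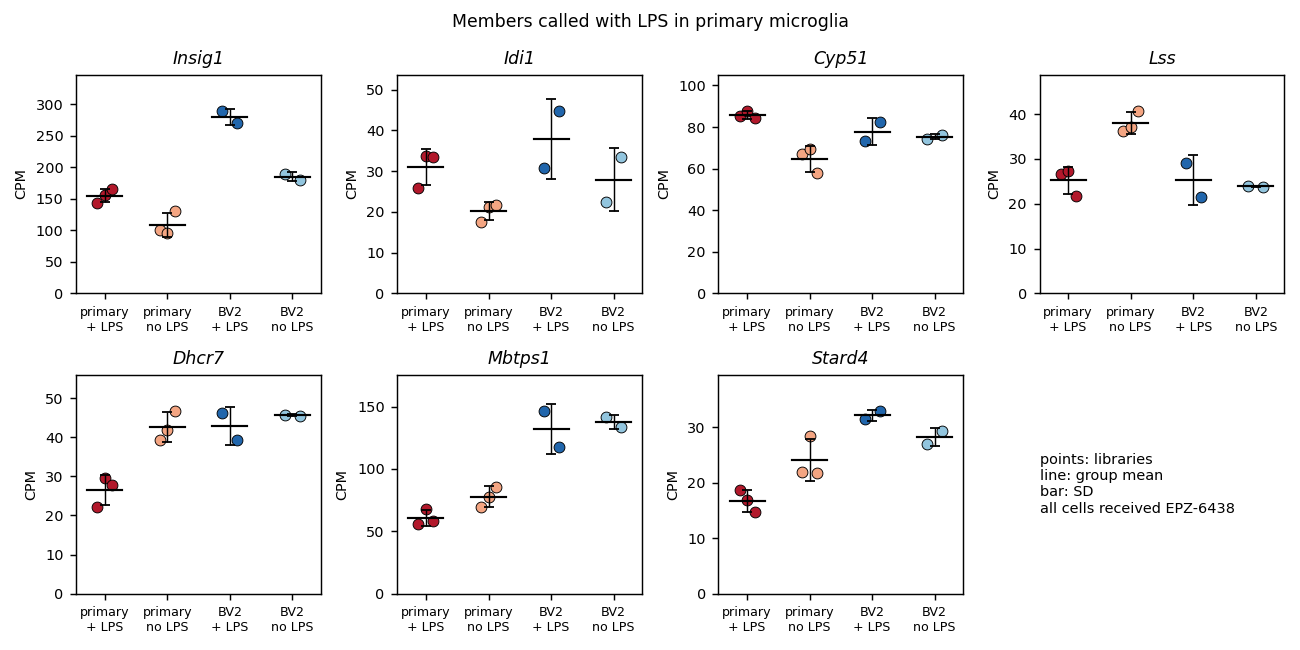
CPM of the 7 members called with LPS in primary microglia, in every library of the 4 groups (points), with the group mean (line) and SD (bar). Insig1, Idi1 and Cyp51 lie higher with LPS in primary microglia and Lss, Dhcr7, Mbtps1 and Stard4 lower; in BV2 cells only the Insig1 groups were called apart.

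The same comparison in BV2 cells called 1 of 28 members (3.57%), 1 higher and 0 lower, against 5.20% of the 9321 genes tested, 3.69% higher and 1.51% lower. Insig1 rose here too, with 289.7 and 271.2 CPM with LPS against 190.3 and 180.8 CPM without. Both LPS libraries lay well above both others, 1.55-fold on average (log2 fold change 0.63 ± 0.12, adjusted p = 0.00742, edgeR). Leaving out either BV2 library without LPS ended the call (adjusted p = 0.0912 without replicate 1 and 0.157 without replicate 2), with the arm then resting on 1 library assumed to vary like the other group. Over all 10 alternatives the adjusted p of Insig1 ran from 5.3e-06 to 0.157 and its log2 fold change from 0.60 to 0.69. Insig1 counts were 18.4 and 19.7 times those of Insig2 with LPS and 11.3 and 12.7 times without.

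No other member was called in BV2 cells. Over all 28 members, Insig1 included, the median log2 fold change was 0.11, against -0.01 over all genes tested, and the groups did not overlap for 5 members higher and 2 lower, against 42.1% of all genes. Hsd17b7, a sterol ketone reductase, had 49.6 and 59.9 CPM with LPS and 41.1 and 42.2 CPM without (0.43 ± 0.17, adjusted p = 0.248). Idi1 had 30.8 and 44.7 CPM with LPS and 22.4 and 33.3 CPM without (0.48 ± 0.25, adjusted p = 0.421), and Srebf2 had 120.4 and 93.1 CPM with LPS and 84.7 and 88.4 CPM without (0.33 ± 0.16, adjusted p = 0.372). Single BV2 LPS libraries decided these: without replicate 1, Idi1 (adjusted p = 0.0357) and Hsd17b7 (0.0422) were called, and without replicate 2, Srebf2 was (0.0165).

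The 6 members called in primary microglia and not in BV2 cells had BV2 log2 fold changes from -0.06 (Dhcr7) to 0.48 (Idi1). Lss had 29.2 and 21.4 CPM with LPS and 24.0 and 23.8 CPM without (0.11 ± 0.22), and Dhcr7 had 46.3 and 39.4 CPM with LPS and 45.8 and 45.5 CPM without (-0.06 ± 0.17). Cyp51 gave 0.08 ± 0.15, Mbtps1 -0.03 ± 0.14, Stard4 0.23 ± 0.19 and Idi1 0.48 ± 0.25. In none of these 6 did the BV2 test pass, and whether they differ from primary microglia needs the test of the difference.

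**Figure D3:**
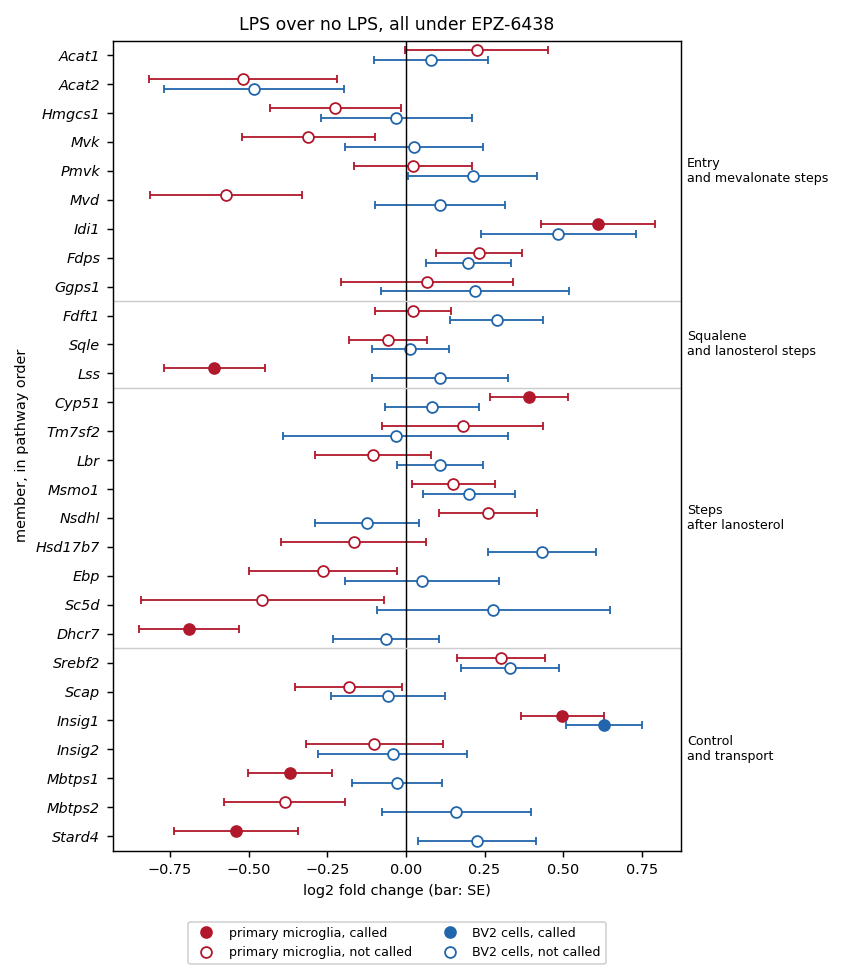
Log2 fold change of each member, LPS over no LPS, with its SE, in primary microglia (red) and BV2 cells (blue), in pathway order; filled points passed an adjusted p of 0.05. The 7 filled primary points lie on both sides of 0, and Insig1 is the 1 member filled in both cell types.

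The difference between the LPS responses (primary microglia minus BV2 cells) was tested as an interaction over all 10 libraries. It called 0 of 28 members with edgeR and 0 with DESeq2, against 12.2% of the 11626 genes tested with edgeR (8.65% above 0 and 3.54% below). An unadjusted edgeR p under 0.05 was reached by 3 of the 28 members, against 2605 of the 11626 genes. The 3 members were Lss (log2 difference -0.67 ± 0.27, adjusted p = 0.118), Dhcr7 (-0.58 ± 0.24, adjusted p = 0.129) and Stard4 (-0.72 ± 0.28, adjusted p = 0.1). For Insig1, called in both cell types, the difference was -0.08 ± 0.20 (adjusted p = 0.936), and for Cyp51 it was 0.36 ± 0.20 (adjusted p = 0.304). Without replicate 1 of the primary microglia with LPS, 3 members passed: Lss at -0.80 (adjusted p = 0.0343, within 0.0343 to 0.493 over 15 alternatives), Stard4 at -0.90 (0.0199, within 0.0199 to 0.303) and Sc5d at -1.42 (0.0385, with others up to 1). Without replicate 2 of the BV2 cells with LPS, Lss alone passed (-0.89, adjusted p = 0.0484). So a difference in LPS response between the cell types was not shown for any member with all libraries, and the 2 BV2 libraries a group limit this test.

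**Figure D4:**
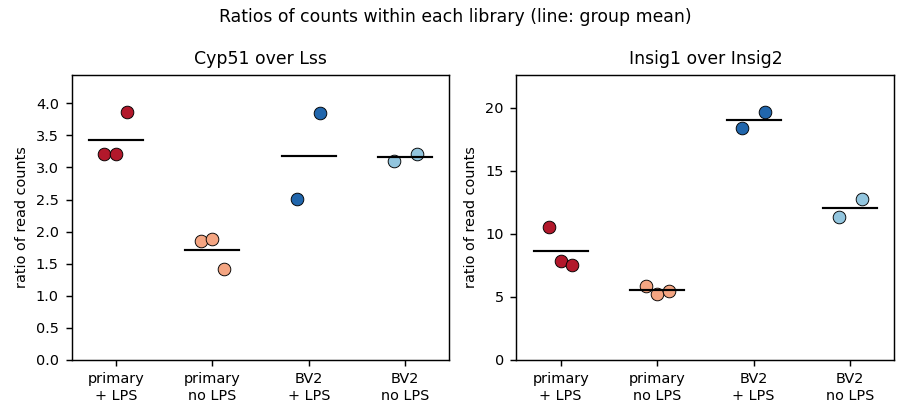
Ratio of read counts within each library (points) and group mean (line), Cyp51 over Lss at left and Insig1 over Insig2 at right. Cyp51 over Lss is 3.21 to 3.87 in primary microglia with LPS and 1.42 to 1.88 without, and the BV2 groups overlap. Insig1 over Insig2 is higher with LPS in both cell types. The ratios were chosen after the values were seen and were not tested.

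The cell types differed more than the LPS groups did. Primary microglia and BV2 cells were compared without LPS and again with LPS, in comparisons that use the same libraries as those above. Without LPS, 15 of 28 members were called (53.6%), 4 higher and 11 lower in primary microglia, against 74.1% of genes tested, of which 41.5% were higher and 32.5% lower. With LPS, 14 members were called (50%), 2 higher and 12 lower, against 73.8% of genes, 43.1% higher and 30.7% lower. The members' median log2 fold change was -0.22 without LPS and -0.38 with LPS, and that of all genes 0.23 and 0.29. The cell types' libraries did not overlap for 20 members without LPS (6 higher and 14 lower), against 84.1% of all genes, and for 18 with LPS (3 higher and 15 lower), against 80.0%. The members' summed level was 1127 to 1207 CPM in primary microglia and 1794 and 1823 CPM in BV2 cells without LPS, and 1181 to 1230 CPM in primary microglia and 1978 and 2029 CPM in BV2 cells with LPS.

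The cultures also differed in other cell types' markers. Astrocyte markers summed to 848 to 1546 CPM over the primary libraries and 38.0 to 43.0 CPM in BV2 cells, where Gfap, Aqp4, Slc1a3, Slc1a2, Gja1 and Aldh1l1 were at 0. Aldoc made up nearly all of the BV2 sum. It was higher in BV2 cells, at 38.0 to 42.7 CPM against 19.2 to 32.6 CPM in primary libraries. Of the 7 astrocyte markers tested, 6 were higher and 1 lower in primary microglia in each comparison. Oligodendrocyte-lineage markers summed to 202 to 250 CPM in primary libraries and 25.0 to 28.4 CPM in BV2 cells. Cnp alone had 24.5 to 27.7 CPM in BV2 cells, nearly all of their sum. Fibroblast markers summed to 82.0 to 322 CPM in primary libraries and at most 0.33 CPM in BV2 cells, and neuronal markers to 54.3 to 67.2 CPM in primary libraries, against 0 in BV2 cells. All 10 microglial markers had counts in every group, summing to 1929 to 2467 CPM in primary libraries and 983 to 1189 CPM in BV2 cells. Of these 10, 8 were higher and 1 lower in primary microglia without LPS, and 6 were higher and 1 lower with LPS. Tmem119 had 1.17 to 2.80 CPM in primary libraries and 9.85 to 18.1 CPM in BV2 cells. The part of the other cell types' RNA in the members' values was not tested.

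Entry genes differed in both directions. Hmgcs1 was higher in primary microglia, at 58.6, 65.2 and 52.2 CPM against 17.4 and 21.1 CPM in BV2 cells without LPS. With LPS it had 71.5, 40.0 and 41.8 CPM in primary microglia, against 15.8 and 20.8 CPM in BV2 cells. No primary library came near the BV2 values, and the log2 fold change was 1.61 ± 0.24 without LPS (adjusted p = 3.85e-06) and 1.46 ± 0.24 with LPS (1.27e-05, edgeR). Acat1, a mitochondrial acetoacetyl-CoA thiolase, went the other way, at 14.2, 16.7 and 20.0 CPM in primary microglia against 67.3 and 68.3 CPM in BV2 cells without LPS (-1.99 ± 0.21, adjusted p = 3.02e-09). With LPS its values were 14.5, 25.4 and 19.8 CPM in primary microglia and 57.7 and 81.6 CPM in BV2 cells (-1.79 ± 0.20, adjusted p = 7.89e-09). Fdps had 57.1, 63.6 and 76.1 CPM in primary microglia and 178 and 172 CPM in BV2 cells without LPS (-1.41 ± 0.14, adjusted p = 1.8e-09), and -1.33 ± 0.14 with LPS (3.14e-09). The kinase Pmvk and the decarboxylase Mvd were also lower in primary microglia in both comparisons. Pmvk gave -0.70 ± 0.20 (adjusted p = 0.0027) without LPS and -0.85 ± 0.19 (0.000307) with LPS. Without BV2 replicate 2, its call without LPS was lost (adjusted p = 0.0835). Mvd gave -0.75 ± 0.23 (0.0052) without LPS and -1.38 ± 0.23 (9.44e-06) with LPS, and its call without LPS was lost without BV2 replicate 1 (0.155). Idi1 was not called without LPS (-0.46 ± 0.22, adjusted p = 0.0618) or with LPS (-0.28 ± 0.20, 0.201). It was called lower in 4 of 14 alternatives in the first, among them the fit without a filter on low counts. In the second it was called lower in 1 of 14. Leaving out BV2 replicate 1 of the group without LPS gave -0.74 in the first. Leaving out BV2 replicate 1 with LPS gave -0.53 in the second. Acat2, Mvk and Ggps1 were called in neither comparison.

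Sqle, which epoxidises squalene and is a rate-limiting step of the pathway, was among the members furthest apart. It had 84.0, 93.3 and 86.9 CPM in primary microglia and 292 and 249 CPM in BV2 cells without LPS. With LPS it had 78.6, 82.0 and 95.2 CPM in primary microglia and 268 and 266 CPM in BV2 cells. The highest primary library (95.2 CPM) lay far below the lowest BV2 library (249 CPM), and the log2 fold change was -1.62 ± 0.13 without LPS (adjusted p = 1.77e-11) and -1.64 ± 0.13 with LPS (9.5e-12). Lss, the next enzyme, was higher in primary microglia without LPS (0.67 ± 0.19, adjusted p = 0.00264) and had a log2 fold change of 0.00 ± 0.19 with LPS (adjusted p = 0.993). Fdft1 was not called without LPS (0.17 ± 0.14, adjusted p = 0.276) or with LPS (-0.05 ± 0.14, 0.749).

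Lbr and Tm7sf2 both encode sterol reductases with the same enzymatic activity after lanosterol demethylation, Lbr also being a lamin-binding protein of the inner nuclear membrane. They differed in opposite directions. Lbr had 20.5, 24.9 and 22.1 CPM in primary microglia and 117 and 123 CPM in BV2 cells without LPS, and 19.2, 20.0 and 23.7 CPM in primary microglia and 121 and 131 CPM in BV2 cells with LPS. Every primary library held far less than every BV2 library. Of the 28 members, Lbr was furthest below BV2 cells in both comparisons, at -2.41 ± 0.15 without LPS (adjusted p = 1.35e-13) and -2.58 ± 0.15 with LPS (1.68e-14). Tm7sf2 had 10.5, 14.7 and 11.6 CPM in primary microglia and 5.61 and 4.95 CPM in BV2 cells without LPS, and 9.38, 18.1 and 13.8 CPM in primary microglia and 4.69 and 5.35 CPM in BV2 cells with LPS. All primary libraries were above all BV2 libraries, at 1.20 ± 0.33 without LPS (adjusted p = 0.00192) and 1.46 ± 0.32 with LPS (0.000192).

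Hsd17b7 was lower in primary microglia, with 20.2, 22.4 and 13.3 CPM against 41.1 and 42.2 CPM in BV2 cells without LPS. Its log2 fold change was -1.17 ± 0.21 without LPS (adjusted p = 1.37e-05) and -1.72 ± 0.20 with LPS (1.46e-08). Msmo1 gave -0.44 in each comparison (adjusted p = 0.00825 without LPS and 0.00728 with LPS). Its call was lost without primary replicate 1 (0.0566) or BV2 replicate 2 (0.0785) in the comparison without LPS, and without BV2 replicate 2 (0.153) in that with LPS. Nsdhl was lower without LPS (-0.68 ± 0.17, adjusted p = 0.000644) and not called with LPS (-0.25 ± 0.16, 0.17), and Dhcr7 was not called without LPS (-0.10 ± 0.17, 0.612) and lower with LPS (-0.68 ± 0.17, 0.00095). Cyp51, Ebp and Sc5d were called in neither comparison with all libraries. Without replicate 1 of the primary microglia with LPS, Sc5d was lower in the comparison with LPS (log2 fold change -1.03, adjusted p = 0.0121), against -0.36 ± 0.41 (0.441) with it.

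Of the control genes, Insig1 was lower in primary microglia both without LPS (-0.76 ± 0.14, adjusted p = 2.04e-05) and with LPS (-0.85 ± 0.13, 2.78e-06). All primary libraries lay below all BV2 libraries, at 95.7 to 165.6 CPM in primary microglia against 180.8 to 289.7 CPM in BV2 cells. Mbtps1 was likewise lower, at -0.82 ± 0.14 (1.29e-05) and -1.11 ± 0.14 (1.13e-07), with 55.9 to 85.9 CPM in primary microglia and 118 to 146 CPM in BV2 cells. Mbtps2 was higher without LPS (0.51 ± 0.22, adjusted p = 0.0422), but this call was lost without a filter on low counts (0.0642), with DESeq2 (0.104), without primary replicate 1 (0.0592) or 2 (0.0979) and without BV2 replicate 1 (0.217) or 2 (0.0852), and its lowest adjusted p over 14 alternatives was 0.0149. With LPS it gave 0.01 ± 0.22 (0.974). Stard4 was not called without LPS (-0.23 ± 0.20, 0.293) and lower with LPS (-0.95 ± 0.20, 0.000107). Srebf2, Scap and Insig2 were called in neither comparison, and the log2 fold changes of Srebf2 were -0.07 ± 0.16 without LPS and -0.06 ± 0.16 with LPS.

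**Figure D5:**
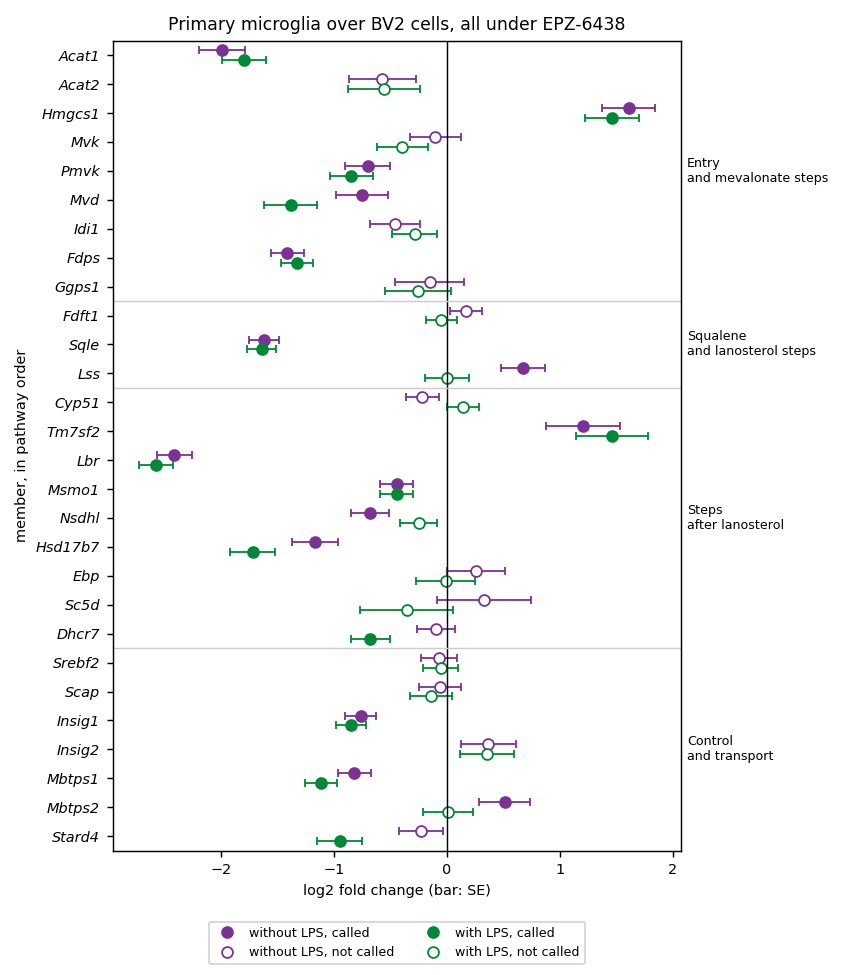
Log2 fold change of each member, primary microglia over BV2 cells, with its SE, without LPS (purple) and with LPS (green), in pathway order; filled points passed an adjusted p of 0.05. Lbr lies furthest below 0 (-2.41 and -2.58) and Hmgcs1 and Tm7sf2 lie above it in both comparisons.

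Genes next to the pathway were read from 5 lists, which were chosen with earlier results of these data known. The counts of calls are given as a description, with no test of the lists. Their median log2 fold changes with LPS in primary microglia were 0.45 for sterol-sensed degradation, -0.21 for fatty acid synthesis, 0.20 for isoprenoid use, -0.28 for sterol transport and storage and 0.20 for oxysterols, LXR and efflux, against -0.03 over all genes tested. The ubiquitin ligases and extraction factors by which sterols trigger degradation of pathway enzymes had 8 of 13 members higher and 0 lower with LPS in primary microglia, where 21.4% of all genes tested were higher and 17.8% lower. Rnf145, a ligase of this kind, had 69.6, 78.2 and 76.0 CPM with LPS and 42.9, 40.3 and 38.9 CPM without (log2 fold change 0.86 ± 0.13, adjusted p = 2.73e-05). It was also the 1 of the list's 13 genes called in BV2 cells, where 5.20% of all genes tested were called and 3.69% were higher. Rnf145 had 62.4 and 49.2 CPM there with LPS and 28.3 and 31.0 CPM without (0.94 ± 0.18, adjusted p = 0.00843). Rnf139, another such ligase, rose in primary microglia (1.45 ± 0.15, adjusted p = 3.27e-07), as did Nploc4, a cofactor that helps pull proteins from the membrane (0.68 ± 0.12, 9.95e-05).

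Fatty acid synthesis genes, controlled mainly by the related factor SREBP1, had 0 of 13 higher and 5 lower with LPS in primary microglia. The 5 called, all lower, were 38.5% of the list. Of all genes tested there, 17.8% were lower, 21.4% were higher and 39.2% were called in either direction. The desaturase Fads1 fell most of those named, to 42.2, 31.1 and 33.3 CPM with LPS against 80.3, 97.4 and 76.4 CPM without (-1.27 ± 0.15, adjusted p = 1.21e-06). Mid1ip1, an activator of acetyl-CoA carboxylase, gave -1.18 ± 0.20 (7.8e-05), and the desaturase Scd2 gave -0.61 ± 0.12 (0.000395). Scd2 was also the 1 of 11 fatty acid genes called in BV2 cells, where 5.20% of all genes were called (-0.71 ± 0.13, 0.00491), a call lost without BV2 replicate 1 in the group without LPS (0.0983, the highest over 10 alternatives, whose lowest was 3.15e-05).

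Of 14 genes that use isoprenoids made by the pathway, 6 rose and 1 fell in primary microglia, against 21.4% of all genes higher and 17.8% lower. In BV2 cells 0 of 14 were called with edgeR, near the 5.20% of all genes called there. An unadjusted p under 0.05 was reached by 0 of the 14, against 1321 of the 9321 genes tested. Pdss1, which makes the side chain of coenzyme Q, rose, with 5.08, 5.40 and 9.61 CPM with LPS against 1.87, 1.63 and 3.51 CPM without (1.50 ± 0.41, adjusted p = 0.00647). Its call was lost without replicate 3 with LPS (0.0675, the highest over 12 alternatives, whose lowest was 0.000201). Nus1, a subunit of the enzyme that makes dolichol precursors, gave 0.57 ± 0.14 (0.00323). Chm, an escort protein for Rab prenylation, gave 0.56 ± 0.17 (0.0119), and lost its call without replicate 1 (0.05) or 2 (0.0507) without LPS or replicate 3 with LPS (0.112), its range over 12 alternatives being 0.000118 to 0.112.

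Sterol transport and storage genes had 4 of 16 higher and 5 lower in primary microglia, against 21.4% and 17.8% of all genes, and 1 of 15 higher and 2 lower in BV2 cells, against 3.69% and 1.51% of all genes. Nceh1, which hydrolyses cholesteryl ester, fell to 64.9, 77.2 and 76.3 CPM with LPS, against 303, 273 and 299 CPM without (-2.01 ± 0.12, adjusted p = 5.87e-11). Soat1, which makes cholesteryl ester, fell to 143, 143 and 156 CPM with LPS, against 335, 332 and 362 CPM without (-1.23 ± 0.11, 2.08e-08). The late endosomal sterol carrier Stard3 rose, at 100.1, 124 and 118 CPM with LPS and 25.0, 32.2 and 36.5 CPM without (1.85 ± 0.15, 6.46e-09). In BV2 cells Nceh1 fell (-0.59 ± 0.13, adjusted p = 0.0164), though not without replicate 1 (0.268) or 2 (0.182) of the group without LPS, within a range of 0.0025 to 0.268 over 10 alternatives.

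Among 9 oxysterol, LXR and efflux genes, 3 rose and 4 fell in primary microglia, against 21.4% of all genes higher and 17.8% lower, and 1 rose and 1 fell of 8 in BV2 cells, against 3.69% and 1.51%. Ch25h, which makes 25-hydroxycholesterol, an oxysterol that retains SREBP2 through INSIG, had 723, 841 and 918 CPM with LPS, against 4.11, 3.26 and 3.51 CPM without. All 3 LPS libraries stood far above the others, 223-fold on average (log2 fold change 7.80 ± 0.18, adjusted p = 6.7e-17, edgeR). Ch25h had 0 counts in all 4 BV2 libraries, where 3 counts would correspond to 0.844 to 1.01 CPM. No LPS response is given there, nor a difference between the cell types. The efflux transporter Abca1 fell to 462, 458 and 439 CPM with LPS, against 931, 894 and 910 CPM without (-1.02 ± 0.10, 1.01e-07). The mitochondrial sterol hydroxylase Cyp27a1 fell to 1.17, 1.91 and 2.26 CPM with LPS, against 11.2, 9.37 and 10.5 CPM without (-2.49 ± 0.34, 7.87e-06).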

How the data were processed

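RNA from 10 libraries was sequenced and processed by the authors. The submitters' processing notes name CASAVA 1.8.2, Trimmomatic 0.33, STAR 2.5.1, DESeq2 and the mm10 build, without saying in what role; the sources used here do not give the annotation. The deposited files are STAR tables of raw read counts per gene (unstranded and by strand). The reverse-strand counts were used, since the kit is directional, per the labels' protocols, and 0.682% to 2.21% of stranded counts lay on the other strand. The 4 entries that name no gene (70.4% to 79.5% of each table's total) entered neither the library sizes nor the tests. With R 4.3.3 and edgeR 4.0.16, genes were filtered with filterByExpr (minimum count 10, minimum total count 15), scaled by TMM, and tested with the quasi-likelihood test and Benjamini-Hochberg adjustment over all genes tested. LPS comparisons were fitted within each cell type, and the difference between LPS responses and the comparisons of cell types over all 10 libraries. Each SE was derived from the test, as the absolute log2 fold change divided by the square root of the F statistic. The libraries held 2750988 to 3684012 counts on genes, and 1 count was worth 0.281 to 0.407 CPM. The scripts' fits were tested on simulated data.

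The members and lists were chosen with earlier results of these data known. By the naming rule, members called with LPS or in the difference of responses are given in every library, and each other list gives at most the 3 called genes with the smallest adjusted p with LPS in primary microglia. Values by library of other members were added after their values were seen. Exon lengths and positions are from GENCODE M21 (GRCm38) and promoters from RefSeq. Libraries of 1 group varied beyond sampling noise (chi-square per degree of freedom at least 1.41), so none was taken for a repeat deposit of another; this does not show that they came from separate cultures. Alternatives were other size factors, no filter, Rn45s left out, a fit of all 10 libraries, a replicate block, DESeq2 1.42.0 and each library left out.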

Additional observations from a re-analysis of the deposited data

Results flagged for a closer look

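No member met a rule for a closer look: groups held 2 or 3 libraries, too few for a search for outlying samples, and no member's LPS response differed between the cell types with all libraries. Of the 15 neighbouring genes named, 9 had an LPS response that differed between primary microglia and BV2 cells by the interaction test (edgeR, Benjamini-Hochberg adjustment over all genes), given as primary minus BV2 on the log2 scale. Over all genes tested 12.2% differed, but the 15 were named for their LPS response in primary microglia, which enters the difference, so the count cannot be read against that share.

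Stard3 differed by 2.07 ± 0.24 (SE, adjusted p = 1.9e-07), with log2 fold changes of 1.85 in primary microglia and -0.16 in BV2 cells. Nceh1 differed by -1.37 ± 0.18 (2.29e-06), with -2.01 in primary microglia and -0.59 in BV2 cells. Rnf139 differed by 1.39 ± 0.25 (0.000153), with 1.45 in primary microglia and 0.10 in BV2 cells. Soat1 differed by -0.87 ± 0.17 (0.000451), with -1.23 in primary microglia and -0.32 in BV2 cells. Abca1 differed by -0.99 ± 0.19 (0.000506), with -1.02 in primary microglia and 0.02 in BV2 cells. Fads1 differed by -1.14 ± 0.24 (0.00106), with -1.27 in primary microglia and -0.09 in BV2 cells. These 6 differences were called in all 15 alternatives.

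Cyp27a1 differed by -2.56 ± 0.57 (0.00199), with -2.49 in primary microglia and 0.11 in BV2 cells, and lost its call without replicate 1 of the BV2 cells with LPS (0.0716). Nploc4 differed by 0.70 ± 0.19 (0.0137), with 0.68 in primary microglia and 0.03 in BV2 cells, and was called in 10 of 15 alternatives (adjusted p 0.00483 to 0.0892). Pdss1 differed by 1.43 ± 0.47 (0.0422), with 1.50 in primary microglia and 0.11 in BV2 cells, and was called in 7 of 15 (0.018 to 0.202). The libraries whose omission ended the Nploc4 call were each of the 3 primary libraries without LPS, BV2 replicate 1 without LPS and BV2 replicate 2 with LPS.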

How the results depend on the processing

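The count of members called with LPS in primary microglia was 7 with other size factors, with Rn45s left out and in a fit of all 10 libraries, 6 without a filter, 5 with DESeq2 and 5 to 9 with single libraries left out. In BV2 cells it was 1 in every setting that kept all libraries and 0 to 3 with single libraries left out. For the difference of responses it was 0 with all libraries and 0 to 3 with single libraries left out. For primary microglia against BV2 cells it was 12 to 16 without LPS and 13 to 15 with LPS. Over all genes, DESeq2 called 311 with LPS in BV2 cells, against 485 in edgeR, and 83.0% of its calls were higher, against 70.9%; single libraries left out gave 353 to 800 there, 3322 to 5326 with LPS in primary microglia and 1002 to 1924 for the difference.

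Of 845 values of named genes called with all libraries and then refitted, 797 stayed called in the same direction, and none was called in the opposite direction. Of 1511 values called in neither fit, 124 had the other sign. The main fits did not pair libraries by replicate number. Deviations of same-numbered primary libraries correlated at 0.190, -0.0876 and 0.207, and not every library correlated best with its own number. Same-numbered BV2 libraries gave 0.175, which is 1 value, since the deviations of 2 libraries from their mean mirror each other. Correlations in groups of 2 or 3 libraries cannot exclude a pairing. With the replicate block, 8 members were called with LPS in primary microglia, Srebf2 added at adjusted p = 0.0497, and 1 in BV2 cells. At 2750988 to 3684012 counts a library and 2 libraries a BV2 group, low members rested on few counts (Sc5d on 13 to 31 a library in primary microglia with LPS), and the effect of depth was not tested.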
